A study of Mus musculus with 20 samples.

Results

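The transcriptional response of wildtype macrophages to LPS/IFNγ stimulation was measured by bulk RNA-seq in 6 libraries, 3 from unstimulated cells and 3 from cells stimulated for 48 h with 50 ng/mL LPS and 30 ng/mL IFNγ. These 6 libraries are a subset of the 20 libraries of the series. In the labels these are macrophages grown from bone marrow (BMDM) of C57BL/6J mice, male or female and 6 to 12 weeks old, cultured with 20 ng/mL M-CSF. The study's methods describe RNA-seq in RAW264.7 cells, an immortalized mouse macrophage-like line, so it is not settled which cells were sequenced, and the libraries are called labelled BMDM here. The doses above are those given for BMDM. For RAW264.7 cells the IFNγ dose given is 10 ng/mL, so the dose is no more settled than the cells. Per the study's methods bone marrow was pooled by genotype, and the RNA-seq on RAW264.7 is described as having 3 biological replicates per group. Whether the libraries labelled BMDM came from separate cultures or animals is not given, so p-values measure the spread between libraries, which may be technical. A gene was included when its counts summed to at least 10 over the 12 libraries labelled BMDM, the 6 wildtype libraries and 6 from iNOS knockout (KO) cells under the same culture and treatment, which kept 18691 of 56748 genes, 13208 of them protein-coding.

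LPS, a component of the outer membrane of Gram-negative bacteria, is sensed by TLR4 and signals through NF-kB and through interferon regulatory factors (IRFs). IFNγ, a cytokine of T and NK cells, acts through the kinases JAK1 and JAK2 and STAT transcription factors. Their combination is the standard stimulus for classical macrophage activation, a state known for nitric oxide and itaconate production, antigen presentation, cytokine release and a shift in metabolism toward glycolysis.

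The wildtype libraries held 15072109 to 17990417 counts. Values are given as CPM, counts scaled to a common library total after TMM normalization, and fold changes as log2 of stimulated over unstimulated from edgeR's quasi-likelihood test, with the adjusted p over all 18691 genes. A gene was called when its adjusted p was under 0.05 and its level changed by over 1 on the log2 scale. The labelled cell type was checked against macrophage markers. Several of those shared by macrophages in general were abundant in unstimulated cells. Csf1r stood at 958 CPM, Adgre1 at 104, Cd68 at 727 and Lyz2 at 5136. Itgam, at 34.7 CPM, and Fcgr1, at 7.73 CPM, were lower. Genes usual in resident or M-CSF-grown macrophages were low or near 0, with 4.0 CPM of Mrc1, 3.23 of Apoe, 0.517 of Axl, 0.190 of Mertk and no count of C1qa in any unstimulated library. Apoe, Axl and C1qa are not among the 9 macrophage markers summed below. Mycn, a MYC-family gene that is rarely expressed outside embryonic and tumor cells, stood at 681 CPM. The summed level of the 9 macrophage markers was 7214 to 7568 CPM in unstimulated and 6585 to 7362 CPM in stimulated libraries. Lyz2 was the largest part of it, at a mean of 5136 CPM unstimulated and 3676.5 CPM stimulated. Of the 9 markers, 4 were called higher and 1 lower. Of 9 neutrophil markers 3 reached the count minimum, and Ly6g and Elane did not. Their sum was 0.939 to 1.17 CPM unstimulated and 35.4 to 62.1 CPM stimulated, nearly all of it S100a8, and the part of other cells in that rise was not tested. The marker sums of fibroblasts, T and NK cells, B cells, dendritic cells, mast cells, erythroid cells and endothelial cells were at most 4.85 CPM in any of the 6 libraries.

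Stimulation changed a large part of the transcriptome. In all, 3684 genes (19.7% of those tested) were upregulated and 2927 (15.7%) were downregulated, and without the fold change limit 6051 genes (32.4%) rose and 5333 (28.5%) fell. Over all genes tested, every stimulated library lay above every unstimulated library in 6721 genes (36%) and below in 5960 (31.9%), and this held for 3585 of the 3684 upregulated and 2870 of the 2927 downregulated genes. Upregulation was the larger in size: 1003 genes rose and 381 fell by over 4 on the log2 scale, and 46 genes rose by over 10 against 1 gene, Cenpf, that fell by as much, though fitted values of genes at or near 0 depend on the prior count. A total of 522 upregulated genes had no count in any unstimulated library, and 185 downregulated genes had none in any stimulated library. The upregulated genes took 13.1% to 13.3% of the counts in unstimulated cells and 45.5% to 45.6% in stimulated cells, while the downregulated genes went from 22.1% to 22.3% down to 4.97% to 5.02%. This change in composition bears on the scale. The median log2 fold change over all genes was 0.07, and with scaling to the total count alone the median shift of a gene was -0.46, which gave 2622 genes up and 4747 down, so the share of upregulated genes among the calls was 55.7% with TMM and 35.6% without. Changes below are relative to the TMM scale, and those of under about 0.5 take their sign from it. In bulk samples, fewer cells of a kind and less RNA per cell cannot be told apart.

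**Figure D1:**
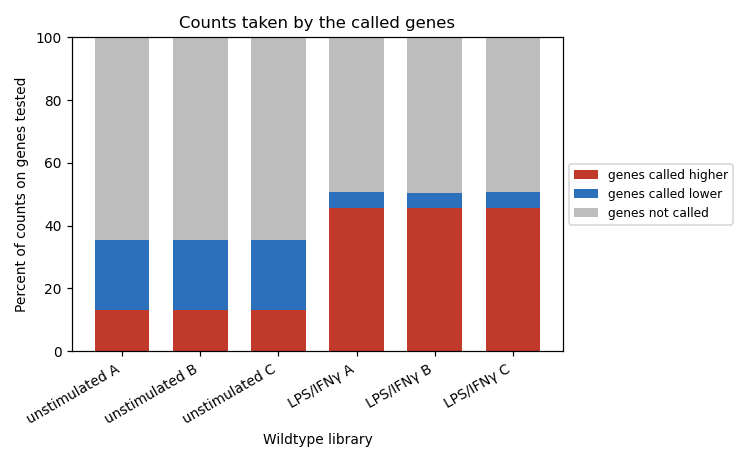
Percent of the counts on the genes tested that fell on genes called higher, called lower or not called, in each of the 6 wildtype libraries (stacked bars). The genes called higher take about 13% of the counts in unstimulated libraries and over 45% in stimulated libraries.

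**Figure D2:**
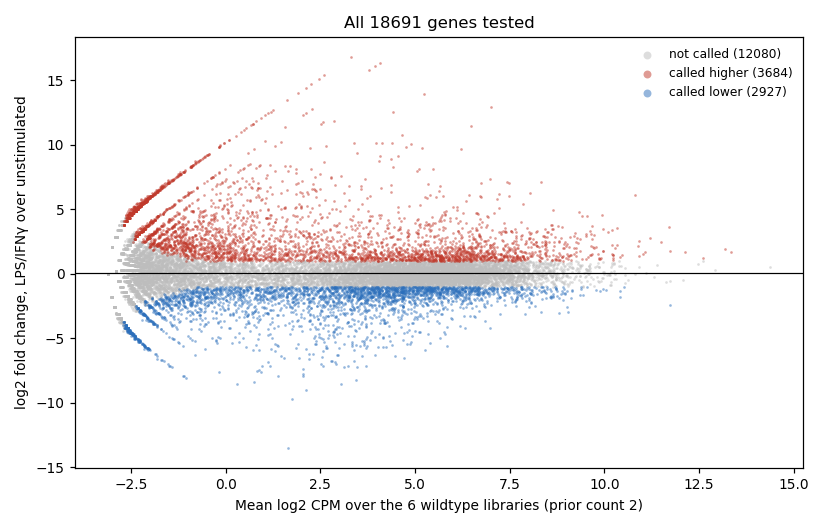
Log2 fold change of LPS/IFNγ over unstimulated against the mean log2 CPM over the 6 wildtype libraries for each of the 18691 genes (points), with the median of all genes as a line at 0.07. The 3684 genes called higher reach further from 0 than the 2927 called lower, and the diagonal streaks at low levels are genes with 0 or few counts in a group, whose fitted fold change depends on the prior count.

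Interferon-inducible GTPases were among the most strongly induced genes. Serpina3f, a serine protease inhibitor (ENSMUSG00000066363, chromosome 12, 104180803 to 104187388 as the count table lists it), had no count in the 3 unstimulated libraries and 811, 830.3 and 897 CPM in the stimulated libraries, at least 5155-fold higher when 3 counts per library are set as the floor. Guanylate-binding proteins (GBPs) assemble on pathogen vacuoles and on bacteria, and all 11 that were tested rose, with a median log2 fold change of 12.28, or 11.74 with the members at 0 set to their floor. Gbp2 (ENSMUSG00000028270, chromosome 3, 142326363 to 142343769) was at 0.249, 0.0556 and 0.411 CPM in unstimulated and 1396, 1428 and 1472 CPM in stimulated libraries (log2 fold change 12.52, SE 0.16, adjusted p = 1.4e-18). Gbp7 went from 0.498, 0.500 and 0.704 CPM to 730.3, 618 and 627 CPM, and Gbp3 from 0.548, 1.33 and 0.704 CPM to 866, 747 and 807 CPM. Gbp2b (Gbp1), the GBP with the most reads, went from 0.150, 0.445 and 0.176 CPM to 4234, 3938 and 4177 CPM (log2 fold change 13.94). The groups were far apart in each of these genes, and the libraries of a group differed little among themselves once stimulated. Gbp5, which promotes inflammasome assembly, had 1 count over the 3 unstimulated libraries and 63772 over the stimulated libraries, a ratio of 80430 with a 95% counting interval of 14440 to 3177000. Gbp4 likewise had 1 count against 77323, a ratio of 97520 with an interval of 17500 to 3852000. The immunity-related GTPases (IRGs), which act on the same vacuoles, rose in 16 of 16 members tested (median log2 fold change 8.91). Irgm1, a regulator of the family, went from 14, 14.2 and 15.7 CPM to 1965, 2019 and 2065 CPM (log2 fold change 7.11, SE 0.10). Iigp1, an effector of the family, had 1 count unstimulated and 92840 stimulated, a ratio of 117100 with an interval of 21020 to 4625000. Members of both families have close copies in the genome, so how reads were split between neighbours such as Gbp2 and Gbp2b or Tgtp1 and Tgtp2 is uncertain.

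Antiviral genes formed the widest interferon group: 47 of 49 interferon-stimulated genes tested rose and none fell, and their median was 4.96 on the log2 scale against 0.07 over all genes. Rsad2, which makes the antiviral nucleotide ddhCTP, was at 1.45, 1.89 and 1.64 CPM in unstimulated and 4654, 4467 and 4593 CPM in stimulated libraries (log2 fold change 11.43, SE 0.14, adjusted p = 1.1e-18). Cmpk2, its neighbour in the genome, rose from a mean of 1.16 to 1019 CPM. Isg15, a ubiquitin-like modifier, went from 2.09, 2.33 and 1.58 CPM to 528, 548 and 600.1 CPM. Ifit1, which binds foreign RNA, went from 0.648, 0.667 and 0.646 CPM to 381, 361 and 367 CPM. The stimulated libraries lay above the unstimulated libraries in each of them without overlap. Oasl2 (10.14 on the log2 scale), Zbp1 (9.35) and Parp14 (6.15) also rose, while Ifitm3 (0.92) and Apobec3 (0.83) stayed under the fold change limit. The interferon transcripts themselves were scarce: Ifnb1 had no count unstimulated and 7 counts over the 3 stimulated libraries.

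Proximal promoters are shown for genes of these groups because the factors downstream of both stimuli recognize short sequences there. The windows run from 250 bases before to 50 bases after the start site in RefSeq's GRCm38.p6 annotation, on the strand of the gene, and were searched on both strands for GAAANNGAA (the interferon-stimulated response element, ISRE), TTCNNNGAA (the gamma-activated sequence, GAS) and GGANTTTCC (the kB element). ISRE and GAS matches may overlap. Capitals mark the matches, ISRE and GAS in Gbp7, ISRE in Ifit1, GAS in Irf1, ISRE and then kB in Cxcl10, and kB in Acod1. The windows lie at chr3:142530086-142530385 (plus strand) for Gbp7, chr19:34640639-34640938 (plus) for Ifit1, chr11:53769764-53770063 (plus) for the outer start of Irf1, chr5:92348840-92349139 (minus) for Cxcl10 and chr14:103046762-103047061 (plus) for Acod1.
Gbp7: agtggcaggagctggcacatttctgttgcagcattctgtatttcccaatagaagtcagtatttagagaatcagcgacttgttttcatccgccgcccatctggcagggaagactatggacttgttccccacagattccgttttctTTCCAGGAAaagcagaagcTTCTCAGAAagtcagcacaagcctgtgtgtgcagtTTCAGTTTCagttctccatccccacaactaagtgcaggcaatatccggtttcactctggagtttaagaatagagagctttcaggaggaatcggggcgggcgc
Ifit1: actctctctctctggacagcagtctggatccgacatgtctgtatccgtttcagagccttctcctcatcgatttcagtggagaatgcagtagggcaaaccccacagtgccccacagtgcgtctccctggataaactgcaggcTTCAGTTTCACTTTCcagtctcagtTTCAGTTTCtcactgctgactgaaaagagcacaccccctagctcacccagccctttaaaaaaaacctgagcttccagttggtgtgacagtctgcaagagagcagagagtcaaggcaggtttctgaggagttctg
Irf1: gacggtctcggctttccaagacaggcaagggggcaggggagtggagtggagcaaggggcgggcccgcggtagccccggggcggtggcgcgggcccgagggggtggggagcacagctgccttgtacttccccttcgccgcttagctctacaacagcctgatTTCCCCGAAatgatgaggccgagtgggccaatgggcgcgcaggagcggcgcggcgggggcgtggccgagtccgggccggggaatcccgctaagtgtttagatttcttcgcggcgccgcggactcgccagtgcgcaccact
Cxcl10: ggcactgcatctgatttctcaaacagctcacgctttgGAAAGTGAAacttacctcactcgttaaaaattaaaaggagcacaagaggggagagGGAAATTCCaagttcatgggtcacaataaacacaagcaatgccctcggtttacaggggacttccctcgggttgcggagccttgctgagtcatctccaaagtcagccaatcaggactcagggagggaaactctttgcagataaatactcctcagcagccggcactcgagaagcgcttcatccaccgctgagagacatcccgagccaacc
Acod1: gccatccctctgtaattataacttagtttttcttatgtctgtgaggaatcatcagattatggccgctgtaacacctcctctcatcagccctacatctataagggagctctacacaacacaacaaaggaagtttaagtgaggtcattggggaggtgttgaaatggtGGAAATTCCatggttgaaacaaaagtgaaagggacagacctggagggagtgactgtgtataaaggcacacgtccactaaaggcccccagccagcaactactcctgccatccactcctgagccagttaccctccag

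In the Gbp7 window the ISRE match spans -52 to -44 from the start site and the GAS matches -106 to -98 and -87 to -79. Ifit1 holds 3 ISRE matches between -109 and -76, the outer Irf1 window a GAS match at -90 to -82, while the other Irf1 window of the table held no match, and Acod1 a kB match at -85 to -77. Among all 32851 windows of the table, 8.56% held ISRE, 8.30% GAS and 1.25% kB. A window was matched for 76.9% of the upregulated protein-coding genes, under the 80% set for a comparison of shares, and for 45.5% of the GBPs, so none is made for them. A match describes letters and is not a measured binding site.

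Signaling genes of both pathways were examined from receptor to transcription factor. Irf1, an early interferon-induced factor, went from 9.22, 9.84 and 10.6 CPM to 1644, 1637 and 1504 CPM (log2 fold change 7.34, SE 0.11, adjusted p = 7.4e-18), and Irf7 from 11.0, 12.7 and 15.4 CPM to 804, 840.1 and 880.0 CPM. Irf8 and Irf9 rose less (3.40 and 2.96), whereas Irf3 (-0.04) and Irf5 (-0.13) were not called, so 5 of the 9 IRFs tested were upregulated. Among the kinases and STATs, Stat2 (4.36), Stat3 (2.96), Jak2 (2.96) and Jak1 (2.17) rose, and the receptor chains Ifngr1 (-0.33) and Ifngr2 (-0.19) were not called. The LPS receptor itself showed little difference, with Tlr4 at 64.8, 68.2 and 57.8 CPM unstimulated and 70.6, 56.5 and 57.3 CPM stimulated, and its co-receptor Ly96 (MD-2) rose by 2.13. Of the 19 LPS receptor and adaptor genes tested, 6 rose, Ticam1 (2.05) and Ticam2 (2.16) among them, and Tab1 fell (-2.02), and their median of 0.40 became -0.06 when scaled to total counts. Tlr2 stood at 581 CPM unstimulated and 309.8 CPM stimulated, and did not reach the fold limit. Feedback regulators rose too, in 8 of 16 SOCS and DUSP genes. Socs1, an inhibitor of JAK kinases, went from 1.25, 1.17 and 1.12 CPM to 129, 107 and 101 CPM, and Socs3 from 36.9, 33.0 and 35.7 CPM to 1589, 1542 and 1359 CPM. The NF-kB inhibitors Nfkbia (2.48) and Tnfaip3 (3.33) rose, as did 10 of 15 NF-kB subunits and inhibitors, with none called lower.

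Antigen presentation genes rose in both classes but from different levels. In the class I group 15 of 18 genes were upregulated (median log2 fold change 3.54). Tap1, a subunit of the peptide transporter, went from 17.6, 19.8 and 20.4 CPM to 1008, 1058 and 1095 CPM (log2 fold change 5.77, SE 0.09), and B2m, the light chain, from 292, 304 and 293 CPM to 3058, 3436 and 3574 CPM. Nlrc5, the class I transactivator, rose by 3.96. The ER chaperones of the list, Calr (-0.34), Pdia3 (-0.45) and Canx (-0.72), were not called. Immunoproteasome subunits Psmb9 (3.91), Psmb10 (2.89) and Psmb8 (2.50) rose, and 6 of 7 genes of that list were called. The 14 constitutive 20S proteasome genes gave no call in either direction and a median of 0.13, which becomes -0.34 when scaled to total counts. The class II group had 12 of 15 genes upregulated and none downregulated. Its transactivator Ciita had 3 counts over the unstimulated and 933 over the stimulated libraries, a ratio of 392.2 with a 95% counting interval of 134 to 1905. H2-Eb1 was at 0 in each unstimulated library and at 15.7, 16.3 and 17.8 CPM in the stimulated libraries, at least 101-fold higher. H2-Aa showed the same pattern, with 11.8, 12.6 and 12.2 CPM after stimulation. Cd74, the invariant chain, was measured well in both states and went from 132, 130.0 and 136 CPM to 929, 911 and 1032 CPM.

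Secreted factors differed widely in where they started. Of 31 chemokines listed 22 reached the count minimum, of which 19 rose and 1 fell. Cxcl9, a ligand of CXCR3, had no count unstimulated and 252, 248 and 282 CPM stimulated, at least 1586-fold higher. Cxcl10 went from 3.34, 3.28 and 4.11 CPM to 432, 445 and 462 CPM, and Ccl5 from 0.548, 0.500 and 0.587 CPM to 899, 983 and 1036 CPM (log2 fold change 10.78, SE 0.12). Neither group of libraries came near the other in these genes. Chemokines with an unstimulated level of over 100 CPM, Ccl2 (3.33), Ccl3 (2.92), Ccl4 (3.44), Ccl9 (1.24) and Cxcl2 (4.82), rose by less on the log2 scale, and Cxcl14 fell (-3.19). Among the 19 interleukins 16 rose. Il1b is an inflammasome substrate and went from 1.30, 0.500 and 0.528 CPM to 317, 324 and 369 CPM. Il6 had 0.0997, 0.111 and 0 CPM and then 31.9, 26.4 and 26.6 CPM. Il12b, a subunit of IL-12 and IL-23, was barely detected, with no count unstimulated and 28 counts over the 3 stimulated libraries. Il1rn, the IL-1 receptor antagonist, reached 858 RPKM (CPM per kilobase of gene length) after stimulation against 177 for Il1b and 266 for Il1a. Tnf was at 362, 371 and 382 CPM before and 4612, 4670.1 and 4089 CPM after stimulation. Csf3 (G-CSF) went from 1.25, 0.778 and 0.528 CPM to 902, 920.2 and 1006 CPM, a log2 fold change of 10.07 (SE 0.16), while the growth factors Igf1 (-2.24) and Pdgfb (-1.69) fell. Slamf8, a surface receptor of the SLAM family, went from 0.399, 0.445 and 0.528 CPM to 491, 549 and 565 CPM (10.18). Surface molecules that act on T cells rose as well, with Cd274 (PD-L1) from 13.9, 17 and 15.3 CPM to 2168, 2022 and 1942 CPM and Cd40 from 9.77, 11.8 and 12.7 CPM to 549, 578 and 620.1 CPM, among 12 of 15 co-stimulatory and checkpoint genes.

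Cell death and inflammasome genes rose in 19 of 30 cases and fell in none (median 1.84). Nlrp3, the sensor of the canonical inflammasome, went from 257, 245 and 253 CPM to 2053, 2140.4 and 2189 CPM, and Casp4 (caspase-11), which binds cytosolic LPS, from 10.6, 13.6 and 12.2 CPM to 216, 187 and 205 CPM (log2 fold change 4.07, SE 0.18). Casp1 (3.40), the pore-forming Gsdmd (2.10) and Mlkl (3.31) and the membrane-rupture gene Ninj1 (1.81) rose as well, whereas Ripk3 (-0.65), Nlrc4 (0.05), Bax (-0.09) and Bcl2 (-0.06) were not called. Pycard, the adaptor ASC, was scarce in both states, at 0.0498, 0.167 and 0.293 CPM unstimulated and 0.762, 0.675 and 0.832 CPM stimulated. Complement genes rose in 10 of 17 cases and fell in 1. C3, the central component, went from 19.1, 19.1 and 21.8 CPM to 468, 523 and 527 CPM and its receptor gene C3ar1 rose by 2.95. Chemokine receptors rose in 9 of 13 cases and fell in 3. Ccrl2, a chemerin receptor that does not signal, went from 9.62, 8.84 and 9.33 CPM to 1137, 1216 and 1318 CPM and Ccr1 from 11.2, 9.89 and 10.3 CPM to 374, 384 and 397 CPM, while Cxcr3 (-3.38) and Cxcr4 (-2.29) fell. Of 24 genes listed for tryptophan, NAD and adenosine handling 16 reached the count minimum, and 10 of those moved upward. The ATP-degrading Entpd1 (CD39) went from 1.65, 1.5 and 1.23 CPM to 39.8, 44.3 and 42.2 CPM and the adenosine receptor gene Adora2a from 0.449, 0.556 and 0.880 CPM to 35.6, 43.8 and 35.7 CPM, with the stimulated libraries all above the unstimulated ones, and Nampt, of the NAD salvage pathway, rose by 2.25. Ido1, a tryptophan-degrading enzyme that interferon induces in many cells, had no count unstimulated and 18 counts over the 3 stimulated libraries.

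Immediate early genes, known to respond to a stimulus within minutes, were higher at 48 h in 10 of 17 cases and lower in 2, or in 8 and 5 when scaled to total counts. Egr1 went from 117, 139.5 and 134 CPM to 1072, 972 and 757 CPM, Ier3 rose by 3.28 and Zfp36, which destabilizes cytokine mRNAs, by 3.27, whereas Fos (-1.48) and Fosl2 (-1.55) fell. In the transcription factor families that the count table assigns, bZIP factors were called higher in 21 of 49 cases (42.9%) and lower in 3 (Fos, Fosl2 and Xbp1), and E2F factors higher in 0 and lower in 7 of 10. The C2H2 zinc finger family, the largest, was called higher in 41 (9.3%) and lower in 79 (17.9%) of 441 cases. Over all genes tested the shares were 19.7% higher and 15.7% lower, so its share called lower was near that of all genes.

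**Figure D3:**
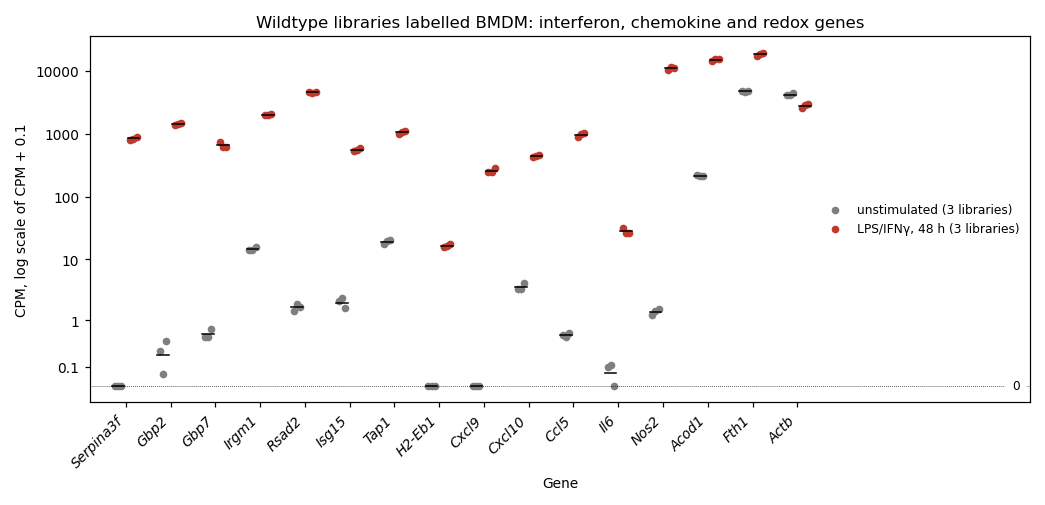
CPM per library, on a log scale of CPM + 0.1, for 16 genes in the 3 unstimulated (grey) and 3 LPS/IFNγ-stimulated (red) wildtype libraries, with the mean of the log values as a bar. Serpina3f, H2-Eb1 and Cxcl9 sit at 0 unstimulated, Nos2, Acod1 and Fth1 are the highest once stimulated, and Actb, not called, is lower after stimulation.

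Nitric oxide and itaconate synthesis reached the top of the transcriptome. Nos2, which encodes iNOS, went from 1.25, 1.45 and 1.53 CPM to 10370.0, 11533 and 11313 CPM. Slc7a2, an arginine importer, went from 0.847, 1.39 and 1.29 CPM to 363, 377 and 351 CPM (log2 fold change 8.28, SE 0.14). Of the enzymes that renew arginine from citrulline, Ass1 rose from a mean of 3.81 to 34.1 CPM and Asl was not called (0.25). Gch1, which makes the iNOS cofactor tetrahydrobiopterin, rose by 1.51, and the spermidine synthase gene Srm fell (-3.84). Arg1, the arginase of alternative activation, was near 0 in both states (0.0741 and 0.295 CPM). Acod1, which makes itaconate from cis-aconitate, went from 221, 215 and 216 CPM to 14466, 15228 and 15411 CPM (log2 fold change 6.11, SE 0.06, adjusted p = 1.3e-19). Per length, the stimulated level of Acod1 was 5732 RPKM, against 2494 for Nos2, 5341 for Fth1 and 7080.5 for Ftl1.

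Central carbon genes did not move as a block. Among 27 glycolysis genes 9 rose and 3 fell (median 0.65 on the log2 scale). Slc2a1 (GLUT1) went from 221, 208 and 221 CPM to 1547, 1619.9 and 1684 CPM, and all 3 hexokinase genes of the list rose (Hk1 1.41, Hk2 2.31, Hk3 2.41). Further along, Pfkp (1.15), Pfkfb3, which makes an allosteric activator of phosphofructokinase (3.34), Pgk1 (1.37) and Eno2 (2.98) rose, and Pfkm (-1.17), Eno3 (-2.62) and the lactate transporter Slc16a1 (-1.44) fell. Pkm (0.79) and Ldha (0.65) were higher by less than the fold limit. Gapdh stood at 234, 28.1 and 202 CPM before and 31.3, 275 and 32.9 CPM after stimulation. Libraries of the same group thus differed more in Gapdh than the groups did, and the gene has many processed copies in the mouse genome, so its count is uncertain. Of 41 pyruvate dehydrogenase, TCA cycle and itaconate genes 3 rose, Acod1, Mpc1 and Pdp1 (1.24), and 9 fell, while scaling to total counts gave 1 higher and 19 lower. Idh2 (mitochondrial NADP isocitrate dehydrogenase) went from 151, 149 and 156 CPM to 18.0, 17.7 and 16.8 CPM (log2 fold change -3.12, SE 0.09), and Idh3a (-1.85), Suclg2 (-2.45) and Fh1 (-1.71) fell, whereas Ogdh (-0.19) was not called. The pyruvate carrier gene Mpc1 rose by 1.24, and Pdha1 was not called (-0.54). Calls among respiratory chain genes depended on the scale. With TMM they were made in 4 of 36 nuclear genes of complex I, 0 of 4 of complex II, 1 of 9 of complex III, 3 of 15 of complex IV and 5 of 17 of complex V, each in the lower direction except Cox4i2 (mean 0.177 to 0.642 CPM, with the call lost under 7 alternatives). The largest falls among subunits above 10 CPM unstimulated were Ndufs8 (-1.94), Ndufa12 (-1.82), Atp5g1 (-1.97) and Atp5g2 (-1.90). Among the 13 protein-coding mitochondrial genes, mt-Nd1 (-1.35) and mt-Nd2 (-1.16) fell and mt-Co1 (0.28) did not reach the limit, and of the 4 called genes mt-Nd3 (0.726 to 0.184 CPM) and mt-Nd4l (3.03 to 1.49 CPM) were scarce. The mt-Nd4l call was lost under 4 alternatives. When scaled to total counts, 13 of the 36 complex I genes, 1 of complex II, 6 of the 9 of complex III, 4 of complex IV and 7 of complex V were lower, and the medians of complexes I and III were -0.93 and -1.13. The complex IV median turned from 0.16 to -0.31 and that of complex II from 0.01 to -0.45.

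Iron storage and thiol redox genes were among the most abundant transcripts after stimulation. Fth1, the ferritin heavy chain, went from 4772, 4687 and 4824 CPM to 17538, 18703 and 19345 CPM and Ftl1, the light chain, from 4132, 3848 and 4345 CPM to 10074, 9154 and 9235 CPM. The transporters Slc11a1 (NRAMP1, 2.32) and Slc11a2 (DMT1, 2.11) rose, the exporter Slc40a1 (ferroportin) was not called (0.72) and neither was the transferrin receptor Tfrc (-0.18). Lcn2, which binds bacterial siderophores, went from 0.249, 0.278 and 0.0587 CPM to 40.2, 47.5 and 48.7 CPM. Prdx1, a peroxidase of the thioredoxin system, rose to 10766, 11972 and 12337 CPM from 968, 965 and 965 CPM (log2 fold change 3.60, SE 0.06). The mitochondrial Prdx3 moved the other way (-1.48), as did Sod1 (-1.12) against Sod2 (2.14). Across the list of NRF2, glutathione and thioredoxin genes 15 of 38 rose and 3 fell, among the latter Akr1b3 (-1.06), with Srxn1 (2.81), Slc7a11 (2.41) and Txnrd1 (1.15) among the rises and Gclc (0.23), Gsr (-0.41) and Nfe2l2, the NRF2 gene itself (-0.13), not called. Its median of 0.45 became -0.01 when scaled to total counts. Subunits of the phagocyte NADPH oxidase were upregulated in 5 of 10 genes (3 when scaled to total counts), with Cybb from 534, 573 and 531 CPM to 2541, 2549 and 2542 CPM. Heat shock and metallothionein genes were called higher in 5 of 19 cases, Dnajb1 (1.77) among them, and lower in 4. These counts are near the shares over all genes, 19.7% higher and 15.7% lower. Of the 4 lower genes Hspd1 (-1.96) and Hspe1 (-1.53) make the mitochondrial chaperonin. The list median of 0.18 became -0.27 when scaled to total counts. Hypoxia-responsive genes rose in 13 of 21 cases and fell in 2, Epas1 (HIF-2α, -3.67) and Car12 (-3.01). The rises included Bnip3 (2.53), Vegfa (2.81) and Ndrg1 (3.11), while Car9 was not called (-0.04) and Hif1a stood at 106 and 117 CPM.

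The 4 lists with the lowest medians were those of the cell cycle. All 63 mitosis and spindle genes tested were downregulated, with a median log2 fold change of -5.07, as were 43 of 51 DNA replication genes (median -2.83), 25 of 34 cyclin, CDK, E2F and related genes (median -2.56, with Ccnd2 the only rise) and 25 of 30 recombination and repair genes (median -2.77). Ube2c, the E2 enzyme of the anaphase-promoting complex (ENSMUSG00000001403, chromosome 2, 164611818 to 164620742), was at 147, 143 and 153 CPM unstimulated and 0.139, 0.540 and 0.485 CPM stimulated (log2 fold change -8.54, SE 0.15, adjusted p = 2.9e-17). Ccnb1, the mitotic cyclin, went from 194, 199 and 199 CPM to 2.35, 1.96 and 2.91 CPM, and Cdc20, an activator of the same complex, from 152, 145 and 160.0 CPM to 0.693, 1.22 and 1.25 CPM. No stimulated library came near an unstimulated library in these genes. Among the 15 largest falls of genes with a mean log2 CPM over 3 were also Ccna2 (-8.20), Ccnb2 (-7.18), the kinases Plk1 (-7.24) and Nek2 (-6.33), the spindle motors Kif11 (-6.78) and Cenpe (-5.73), the PCNA-binding factor Pclaf (-7.22), the cytokinesis gene Anln (-6.32), the checkpoint gene Clspn (-5.93) and the microtubule regulator Stmn1 (-5.67). Cenpf, a kinetochore protein, had 4688 counts over the unstimulated libraries and none in any stimulated library, at least 413-fold lower against the floor of 3 counts per library. Mki67, the Ki-67 proliferation marker, remained readily detected, at 555, 569 and 489 CPM and then 31.3, 29.6 and 27.7 CPM. The study states that BMDMs do not proliferate, whatever their genotype or stimulation. It also states that NO made after stimulation inhibits the proliferation of RAW264.7 cells. Which of these descriptions applies to the libraries labelled BMDM was not tested. Among the replication genes Mcm6, a subunit of the replicative helicase, went from 293, 291 and 302 CPM to 4.78, 5.67 and 4.30 CPM (log2 fold change -5.90, SE 0.09). Pcna, the sliding clamp, did not follow, with 212, 211 and 209.7 CPM unstimulated and 297, 289 and 325 CPM stimulated (0.53 on the log2 scale, under the fold limit). Pola2 (0.50) was not called either. Of the activating E2F genes, E2f2 (-4.91) and E2f3 (-1.36) fell. E2f1 lay just inside the fold limit (-0.95) and was called lower without unstimulated replicate B (-1.01), without stimulated replicate C (-1.02) and when scaled to total counts (-1.41). The atypical repressors E2f7 (-7.17) and E2f8 (-6.26) fell as well. Ccnd1 fell from 440.2, 395 and 429 CPM to 90.6, 104 and 93.2 CPM, Mycn from 677, 659 and 708 CPM to 115, 124 and 130.1 CPM, and Myc stood at 87.4 and 160.5 CPM. The CDK inhibitor Cdkn1a (p21) rose from 165, 149 and 168 CPM to 689, 745 and 793 CPM, Mdm2 by 2.45 and Btg2 by 2.96, while Trp53 (-1.57) and Cdkn2c (-2.81) fell. Cdkn2a and Cdkn2b did not reach the count minimum.

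Promoter windows of 3 downregulated cell cycle genes follow for comparison with those of the induced genes. They were searched on both strands for TTTGAA (the cell cycle homology region, CHR), CCAAT and TTTNGCGC (an E2F element), and capitals mark CHR and CCAAT in Ube2c and Cdc20 and E2F in Mcm6. The windows lie at chr2:164769679-164769978 (plus strand), chr4:118437294-118437593 (minus) and chr1:128359656-128359955 (minus), in GRCm38.p6.
Ube2c: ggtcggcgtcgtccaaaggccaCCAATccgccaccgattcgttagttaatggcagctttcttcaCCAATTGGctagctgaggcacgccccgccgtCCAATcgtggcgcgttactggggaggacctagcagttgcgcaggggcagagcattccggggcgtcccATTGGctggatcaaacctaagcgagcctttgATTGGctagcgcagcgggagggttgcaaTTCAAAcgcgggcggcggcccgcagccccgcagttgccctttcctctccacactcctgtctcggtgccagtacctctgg
Cdc20: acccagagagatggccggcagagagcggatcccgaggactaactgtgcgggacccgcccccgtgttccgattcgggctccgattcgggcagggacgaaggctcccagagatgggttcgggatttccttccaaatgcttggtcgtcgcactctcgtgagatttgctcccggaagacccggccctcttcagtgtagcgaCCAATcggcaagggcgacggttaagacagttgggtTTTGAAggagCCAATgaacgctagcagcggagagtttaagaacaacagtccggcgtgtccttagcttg
Mcm6: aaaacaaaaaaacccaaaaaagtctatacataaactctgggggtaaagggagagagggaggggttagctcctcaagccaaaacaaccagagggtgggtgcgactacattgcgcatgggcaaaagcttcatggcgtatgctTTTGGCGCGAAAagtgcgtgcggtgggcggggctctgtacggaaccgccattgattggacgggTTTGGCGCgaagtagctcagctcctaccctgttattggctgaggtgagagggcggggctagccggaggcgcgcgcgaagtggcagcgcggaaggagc

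The CHR match lies at -29 to -24 in Ube2c and at -18 to -13 in Cdc20, with CCAAT matches upstream of it in both and a further match downstream in Cdc20, and the E2F matches of Mcm6 lie between -110 and -40. Of the mitosis and spindle genes, 56 of 63 had a window, and 66.1% of those held CHR and 67.9% CCAAT, where all windows of the table held them at 17.9% and 37.4%. A gene can have several windows. Counted by gene, as for the lists, 14.9% and 43.1% of the 10464 tested protein-coding genes with a window held them. Of the DNA replication genes, 43 of 51 had a window, and 30.2% held the E2F letters against 1.38% of all windows and 2.83% of the tested genes with a window. These shares are descriptions of the sequence and were not tested.

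Genes of nucleotide, serine and ribosome synthesis also fell. Of 25 purine and pyrimidine synthesis genes 21 were downregulated (median -2.44) and none rose. Rrm2, the regulated subunit of ribonucleotide reductase, went from 237, 238 and 257 CPM to 2.77, 2.70 and 2.50 CPM (log2 fold change -6.52, SE 0.09), and Cad, which starts pyrimidine synthesis, from 271, 269 and 276 CPM to 27.7, 31.5 and 25.9 CPM. Upp1, which breaks uridine down, moved the other way, from 0.299, 0.278 and 0.176 CPM to 278, 306 and 315 CPM (log2 fold change 10.16, SE 0.15). Of 15 serine and folate pathway genes 13 fell, among them Shmt2 (421, 389 and 423 CPM to 31.6, 32.0 and 32.6 CPM), Phgdh (-3.29) and Tyms (-3.43). Ribosomal protein genes fell by a smaller amount: 57 of 76 were called lower and none higher, and the median was -1.38. Rpl4, for example, went from 1499, 1513 and 1518 CPM to 636, 659.9 and 692 CPM and Rps6 from a mean of 861 to 229 CPM, while Rplp0, often used as a reference gene, was not called (-0.23). Eef1a1, the translation elongation factor and the protein-coding gene with the most counts in unstimulated cells, fell from 7724, 7676 and 7859 CPM to 1401, 1490.5 and 1576 CPM (log2 fold change -2.38, SE 0.06, adjusted p = 8.3e-16), and Eef2 stood at a mean of 3909.8 and 2536 CPM without a call. Several ribosomal protein genes, such as Rpl29 and Rps10, stood under 10 CPM, and these families have many near-identical pseudogenes, so their counts are uncertain. Ribosome biogenesis genes were downregulated in 23 of 41 cases (Ncl -1.87, Npm1 -1.69, Dkc1 -3.13). Mitochondrial ribosomal protein genes were called lower in 10 of 77 cases, below the share of all genes called lower, with a median of -0.45. When scaled to total counts 35 of the 77 were lower (median -0.91).

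Lipid synthesis genes followed the same direction. Of 25 sterol synthesis and uptake genes 19 were downregulated and none upregulated (median -1.48). Hmgcs1, an early enzyme of the pathway, went from 94.8, 108 and 94.7 CPM to 23.6, 18.6 and 18.2 CPM (log2 fold change -2.30, SE 0.12), and Fdft1, the squalene synthase gene, from 60.1, 64.1 and 65.9 CPM to 14.5, 17.6 and 15.4 CPM. Srebf2, which encodes the factor that drives the pathway, fell by less (-1.51), and Insig1 (-0.54) was not called. The promoter window of Hmgcs1 (chr13:119690101-119690400, plus strand, GRCm38.p6) is shown with its match to the sterol regulatory element TCACNCCAC, at -137 to -129, in capitals, and 1.24% of all windows hold these letters. Of the 25 sterol genes 18 had a window, and Hmgcs1 was the only 1 of them with a match.
Hmgcs1: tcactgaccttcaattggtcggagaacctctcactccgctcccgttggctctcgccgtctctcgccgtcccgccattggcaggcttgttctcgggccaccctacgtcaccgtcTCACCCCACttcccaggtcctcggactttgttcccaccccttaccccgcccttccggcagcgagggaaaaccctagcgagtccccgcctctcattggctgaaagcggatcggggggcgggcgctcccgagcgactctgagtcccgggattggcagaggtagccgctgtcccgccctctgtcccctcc

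Fatty acid synthesis and desaturation genes were downregulated in 9 of 16 cases. Scd1, the stearoyl-CoA desaturase, went from 176, 185 and 179 CPM to 3.95, 4.66 and 3.61 CPM (log2 fold change -5.46, SE 0.09), and Fasn (-2.57), Fads2 (-4.66) and Scd2 (-2.92) fell. Acsl1, which activates fatty acids and is known as an LPS-induced gene, was the only member called higher (2.52). Of 17 fatty acid oxidation genes 1 was higher (Cpt1a, 1.08) and 2 were lower (Acaa2, -1.5, and Etfb, -1.36), while scaling to total counts gave 0 higher and 7 lower. Lpl, the lipoprotein lipase, fell from 2523, 2602 and 2455 CPM to 718, 759.9 and 743 CPM. Ptgs2 (COX-2) rose from 29.0, 24.0 and 27.1 CPM to 4022, 3612 and 3804 CPM, whereas Ptgs1 (COX-1) was scarce unstimulated, at 0.925 CPM, and had no count after stimulation, at least 4.49-fold lower.

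**Figure D4:**
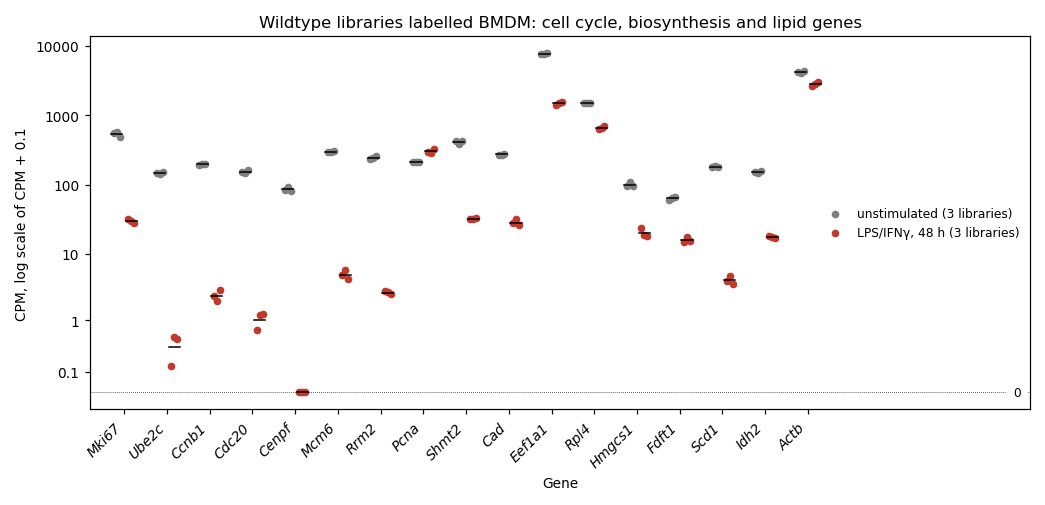
CPM per library, on a log scale of CPM + 0.1, for 17 genes in the 3 unstimulated (grey) and 3 LPS/IFNγ-stimulated (red) wildtype libraries, with the mean of the log values as a bar. Cell cycle genes such as Ube2c, Ccnb1 and Cenpf drop to a few CPM or to 0, Eef1a1 and Rpl4 fall but stay high, and Pcna is the only gene shown that is higher after stimulation.

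Surface and lysosomal genes changed in both directions. Adgre1 (F4/80) went from 105, 101 and 104 CPM to 1396, 1491 and 1506 CPM, a rise of 3.82 (SE 0.06), and Csf1r, the M-CSF receptor, fell from 948, 929.7 and 997 CPM to 445, 491 and 489.7 CPM (-1.01, at the fold limit, so that 5 of the alternatives to the analysis lost its call). Cx3cr1 fell (-3.61), the lowest value among the 31 macrophage identity genes tested, and Spi1, the PU.1 gene, stood at 477 and 401 CPM without a call. Of these 31 genes 15 were called higher and 4 lower (median 0.99). Among 23 scavenger and clearance receptor genes 13 rose and 1 fell. Of 15 Fc and phagocytic receptor genes 9 rose and 2 fell, Itga4 and Itgb5 (-1.96). Fcgr4, an activating Fc receptor, went from 12.5, 14.1 and 13.5 CPM to 256, 276 and 286 CPM, and the inhibitory Fcgr2b was not called (-0.58). The lectin genes Clec4e (Mincle) and Clec7a (Dectin-1) rose by 3.11 and 4.08. Of 12 Ms4a genes listed 8 reached the count minimum, and all 8 rose, Ms4a7 from 1.74, 2.39 and 2.58 CPM to 176, 188 and 186 CPM. Gpnmb, a lysosomal glycoprotein and one of the most abundant transcripts, went from 5709.7, 5695 and 5998 CPM to 16968, 19139 and 19189 CPM. Integrin alpha 4 (Itga4) fell from 306, 331 and 289 CPM to 32.9, 28.5 and 27.7 CPM. Of 21 metalloproteinase and inhibitor genes 12 rose and none fell, led among the abundant ones by Mmp12 (macrophage elastase, 14.1, 13.2 and 12.6 CPM to 862, 781 and 887 CPM). Vim, which encodes the intermediate filament protein vimentin, went from 2570.2, 2436 and 2585 CPM to 7736, 8074 and 8288 CPM. Lysosomal genes rose in 14 of 40 cases and fell in 2, Ctsf (-2.36) and Acp5 (-1.09), with Psap (2.49), Ctsl (2.27) and Ctsd (1.77) among the rises. Ctsb, the most abundant cathepsin gene by reads, went from a mean of 4412 to 8814 CPM, just under the fold limit, and 5 of 18 V-ATPase genes rose, Atp6v1d by 1.67. When scaled to total counts, 7 lysosomal genes were higher and 5 lower, and of the V-ATPase genes 1 was higher and 1 lower. The markers of alternative activation were mostly unmeasurable, as 8 of the 19 listed did not reach the count minimum. Of the 11 tested, 6 rose, among them Il4ra (4.29), and Pparg (-3.29) and Clec10a (-1.30) fell. Stress genes split. Ddit3 (CHOP, 10.2, 11.4 and 11.1 CPM to 155, 154 and 164 CPM), Ppp1r15a (3.58) and Atf3 (3.51) rose, but the ER folding genes Hsp90b1 (-1.80) and Pdia6 (-1.99) and the ER-associated degradation gene Herpud1 (-2.17) fell, which gave 8 higher and 11 lower of 24 genes. Of 13 genes in common use as references 2 rose, Pgk1 (1.37) among them, and 1 fell, while scaling to total counts gave 1 higher and 6 lower. Actb stood at 4139.8, 4101 and 4381 CPM unstimulated and 2603, 2854 and 2981 CPM stimulated.

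**Figure D5:**
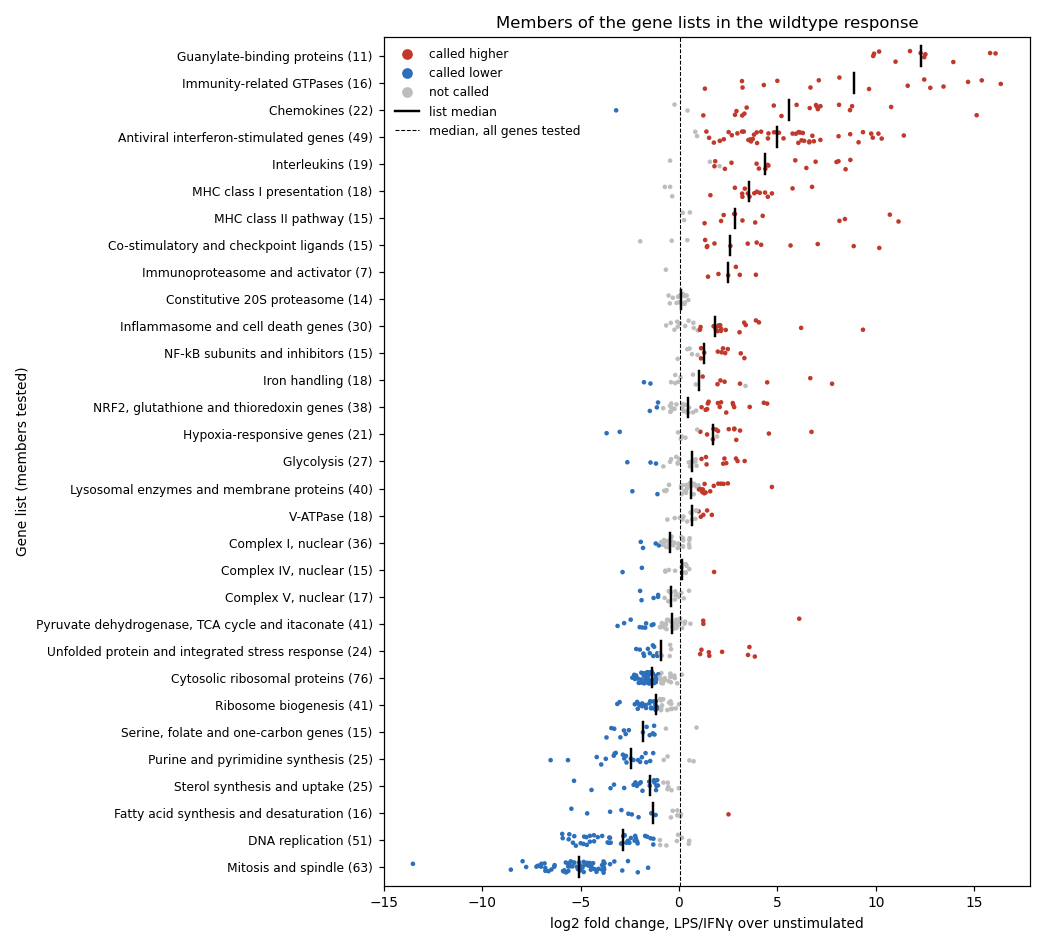
Log2 fold change of LPS/IFNγ over unstimulated for each member (points, red called higher, blue called lower, grey not called) of 31 gene lists, with the list median as a bar and the median of all genes tested (0.07) as a dashed line. Medians run from 12.28 for the guanylate-binding proteins to -5.07 for the mitosis and spindle genes, and the complex IV and 20S proteasome lists lie near the line on this TMM scale.

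Neighbouring genes called in the same direction were listed as runs, and how many runs to expect was not tested. Several of the runs named below are families of similar genes. Counting protein-coding genes in the order of the table, 47 runs of at least 5 consecutive tested genes were called in the same direction, 44 of them higher and 3 lower (Prr11 to Rad51c on chromosome 11, Zfp955a to Adamts10 on chromosome 17 and Tmem238 to Gm36210 on chromosome 7). The longest held 14 genes, from Col11a2 to H2-Ea on chromosome 17 (34258411 to 34563618 in the table), with the class II genes, Psmb8, Psmb9, Tap1 and Tap2 inside it and a median log2 fold change of 4.01. Other runs held 12 genes around Irgm1 on chromosome 11, 9 genes of the Ifi200 family on chromosome 1, 8 genes with a GBP cluster on chromosome 5 and 6 Ifit genes on chromosome 19. A run of 9 on chromosome 3 went from S100a8 to the small proline-rich genes, which are known from the cornified layer of skin. The 6 Sprr2 genes from Sprr2d to Sprr2i had no count in any unstimulated library and means of 1.53 to 44.5 CPM stimulated. These genes are similar in sequence, so the split of reads among them is uncertain. A run of 11 histone genes on chromosome 13 rose as well, with a median of 4.38. Over all 45 core histone genes of the replication-dependent clusters that were tested, a set chosen after their values were seen, 25 were called higher and 2 lower, H3c3 and H3c8, both at under 1 CPM. H2bc4 was the highest of them, at 11.8, 11.3 and 11.4 CPM unstimulated and 153, 158 and 179.8 CPM stimulated. Replication-dependent histone transcripts lack a poly(A) tail, and the libraries were made by poly(A) enrichment, and the source of these reads was not tested. Long noncoding genes were called higher in 675 of 2603 cases (25.9%) and lower in 262 (10.1%), against 19.7% and 15.7% of all genes. Ptgs2os2, which lies beside Ptgs2, rose from 4.44, 5.11 and 4.05 CPM to 84.8, 79.9 and 82.7 CPM, and Mir22hg, the host of miR-22, from 14, 14.6 and 11.2 CPM to 114, 89.9 and 92.3 CPM. Gm49774 (3.55), Gm20186 (2.89) and ENSMUSG00000121093 (3.8) were the other noncoding genes with the largest rises at a mean log2 CPM over 3. ENSMUSG00000120992 had the largest fall, from 293, 296 and 308 CPM to 16.9, 19.2 and 16.9 CPM, before 4933404O12Rik (-3.77), Hmga2-ps1 (-2.23), Gm42047 (-1.52) and ENSMUSG00000120144 (-1.47). Whether counting used strand is not given in the sources used here, so reads of a gene and of an overlapping antisense gene cannot be told apart.

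The same stimulation was given to the iNOS KO libraries labelled BMDM, and the difference of the responses was tested as an interaction. Nos2, the targeted gene, had 0 counts in each unstimulated KO library and 871, 891 and 912 CPM in the stimulated KO libraries, against 10370.0, 11533 and 11313 CPM in the stimulated wildtype libraries, and a count over the whole gene does not show which part of it is transcribed. The difference of the responses passed an adjusted p under 0.05 for 6617 genes (35.4% of those tested). Among the genes upregulated in wildtype cells 1436 of 3684 (39.0%) differed, with a median log2 fold change of 2.46 in wildtype and 1.55 in KO cells, and among the downregulated genes 1841 of 2927 (62.9%), with medians of -1.81 and -0.73. The genes were chosen on the wildtype values, which favours larger values there. In the GBP list the median was 12.28 in wildtype and 11.64 in KO cells, in the mitosis list -5.07 and -0.93, and in the sterol list -1.48 and -0.51.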

How the data were processed

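RNA was poly(A)-enriched, and sequenced by a service provider, per the labels. The submitters' processing notes name CASAVA, STAR and mm10; the counting tool, its strand setting and the annotation are not given in the sources used here. The deposited unit is whole-number read counts per gene, which the authors did not normalize. The gene positions in the table do not match mm10 and are given as listed. Groups come from the labels.

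From the counts, edgeR 4.0.16 (R 4.3.3) fitted a quasi-likelihood model with 4 groups over the 12 libraries labelled BMDM, without replicate pairing, after removal of genes with fewer than 10 counts in total and with TMM scaling. The study's methods name DESeq2, and it was run as an alternative (1.42.0). P-values were adjusted by Benjamini-Hochberg over all 18691 genes, and calls needed an adjusted p under 0.05 and a change, either way, of over 1 on the log2 scale. CPM use TMM-scaled library sizes, and RPKM also the gene length in the table. Where a group had no count, 3 counts per library were taken as the floor; with 1 to 3 counts the ratio has a 95% counting interval. These cover counting error only. The scripts were tested on simulated data. Promoter windows come from RefSeq (GRCm38.p6), and 10464 of the 13208 protein-coding genes tested were matched by symbol or by an unambiguous synonym.

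The genes and gene lists were chosen with earlier results of these data known, so counts over a list are descriptions. Named genes are the 15 protein-coding genes with the largest rise and the 15 with the largest fall among called genes at a mean log2 CPM over 3 without overlap, the 10 most abundant in each condition, 5 noncoding genes each way, list members with an extreme value or a role described, and genes in runs. Alternatives covered the scaling, the expression filter, the tool, the samples in the fit, the fold limit, the replicate block and leaving out each library. Values of some members of the gene lists are not reported here.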

Additional observations from a re-analysis of the deposited data

Results flagged for a closer look

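The wildtype response was set against that of iNOS KO libraries given the same stimulation, in the test of the difference of the responses. Of the 231 genes named in the report that were called in wildtype cells, 94 differed with an adjusted p under 0.05 (edgeR's quasi-likelihood test) and by over 1 on the log2 scale, in both cases with 3 libraries per group. The value in parentheses after each gene is the log2 fold change in wildtype minus that in iNOS KO cells. It was below 0 for 74 and above 0 for 20 of them. Over all 18691 genes tested, 2809 passed the same limits. The named genes counted here had to be called in wildtype cells, which favours larger values there. The genotype and the cultures behind it cannot be told apart here.

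Cell cycle genes, with some of the differences farthest from 0, fell in wildtype cells and less or not at all in KO cells: Cenpf (-11.36), Ube2c (-7.90), Cdc20 (-6.15), E2f7 (-5.91), Ccnb1 (-5.65), E2f8 (-5.12), E2f2 (-3.37), Mki67 (-2.77), Cdkn2c (-1.80), E2f3 (-1.17), Ccnd1 (-1.13), Ccna2 (-7.05), Ccnb2 (-6.07), Plk1 (-6.21), Nek2 (-5.42), Kif11 (-5.13), Cenpe (-4.40), Pclaf (-6.86), Anln (-4.77), Clspn (-5.00) and Stmn1 (-5.16). Cenpf had no count in the stimulated wildtype libraries, so its value depends on the prior count. Replication, nucleotide, serine and growth genes followed: Rrm2 (-6.28), Mcm6 (-5.30), Tyms (-3.46), Shmt2 (-3.12), Phgdh (-2.78), Cad (-2.29), Mycn (-1.75) and Srm (-2.62).

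Lipid synthesis genes fell in wildtype cells and less or not at all in KO cells: Scd1 (-3.34), Fads2 (-3.24), Fasn (-2.11), Hmgcs1 (-1.74), Fdft1 (-1.49) and Srebf2 (-1.04). Among translation genes the values were those of Eef1a1 (-2.61), Dkc1 (-2.13), Rps6 (-2.02) and Rpl4 (-1.18). Mitochondrial genes gave Atp5g1 (-1.99), Atp5g2 (-1.84), Idh2 (-1.75), Suclg2 (-1.5), Ndufs8 (-1.34), Fh1 (-1.24), Idh3a (-1.21), Hspe1 (-1.41), Hspd1 (-1.09) and Prdx3 (-1.04), and genes of the endoplasmic reticulum Herpud1 (-2.53), Pdia6 (-2.18) and Hsp90b1 (-1.30). The remaining genes that fell in wildtype cells were Cx3cr1 (-2.37), Pparg (-2.14), Cxcr3 (-2.01), Trp53 (-1.48), Apoe (-1.45), Itga4 (-1.26), Slc16a1 (-1.16), Pdgfb (-1.05), 4933404O12Rik (-2.08), Hmga2-ps1 (-2.08), Epas1 (-2.27) and Car12 (-1.35).

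A smaller set rose in wildtype cells but by less than in iNOS KO cells: Nos2 (-3.96), Lcn2 (-3.91), Slc7a2 (-1.96), Ass1 (-1.94), C3 (-1.63), Cxcl10 (-1.47), Irf8 (-1.47), Ccrl2 (-1.37), Sod2 (-1.26) and Il1a (-1.18). Nos2 is the gene targeted in the KO. It had no count in the unstimulated KO libraries, so its value depends on the prior count, and its level after stimulation was higher in wildtype than in KO libraries.

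Rises that were larger in wildtype cells included hypoxia and glycolysis genes, Vegfa (2.69), Bnip3 (2.65), Pfkfb3 (2.51), Ndrg1 (2.17), Eno2 (1.87), Hk2 (1.5) and Slc2a1 (1.31), and interferon, cytokine and surface genes, Ccl5 (2.36), Rsad2 (2.11), Cd274 (1.76), Oasl2 (1.58), Cmpk2 (1.28), Csf3 (1.03), Ccr1 (1.44), Clec7a (1.37) and Mmp12 (3.74). The others were H2bc4 (2.14), Mir22hg (1.16), Gm49774 (1.30) and Ier3 (1.02).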

How the results depend on the processing

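The library replicates carry the same letters in both conditions, and whether the letters pair them was not settled. Over 8857 genes, deviations from the group means correlated at -0.13 for A, -0.26 for B and 0.08 for C. Between unlike letters the correlations ran from -0.21 to 0.30. Deviations of 3 libraries from their mean sum to 0, so this check cannot show that the libraries are unpaired. A fit with the replicate letter as a block gave 3582 genes higher and 2847 lower, and 6542 genes for the difference of the genotypes' responses. Leaving out 1 wildtype library at a time gave 3386 to 3516 higher, 2759 to 2915 lower and 5965 to 6172 for the difference. DESeq2 gave 3419 higher and 2694 lower. Scaling to library totals alone gave 4747 lower, without a fold limit 6051 genes were higher and 5333 lower, with a limit of 2 on the log2 scale 2253 and 1251, and the difference of responses counted only over 1 gave 2809 genes; these follow from the scale or the limit itself. With library totals alone 8 of 62 list medians changed sign, those of LXR targets (0.41 to -0.05) and of prostaglandin genes (0.01 to -0.45) among them, and so did the uncalled genes Asl (-0.21), Cd68 (-0.21), Gclc (-0.24), Hif1a (-0.32), Nlrc4 (-0.41) and mt-Co1 (-0.19). Other changes of sign were of uncalled values near 0. Leaving out 1 library gave -0.15 to 0.045 for Car9, -0.10 to 0.022 for Irf3, -0.081 to 0.12 for Nlrc4 and -0.16 to 0.0078 for Tlr4, and Irf3 was at 0.00043 with edgeR's stricter expression filter. Named genes were not rechecked under the other fold limits, and counts of alternatives that lost a call leave these out. Under any other alternative at most 10 named genes lost their call, the most with library totals (Ccl9, Cox4i2, Cpt1a, Ftl1, Hk1, Mpc1, Pdp1, Pfkp, Pgk1 and Txnrd1). Cox4i2 was no longer called, at 1.37 to 2.12, when any 1 of 5 libraries was left out, with stimulated replicate C as the exception. Single libraries decided other calls: Csf1r gave -0.98 without unstimulated replicate C and -0.97 without stimulated replicate A, mt-Nd4l -0.50 without unstimulated and -0.92 without stimulated replicate B (-0.98 with the replicate block), E2f1 -1.01 without unstimulated replicate B and -1.02 without stimulated replicate C, Arg1 5.38 without unstimulated replicate B and Gapdh -2.27 without stimulated replicate B. Genes with under 10 counts in a group have wide errors, and intervals and floors cover counting error only.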

Other observations

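Of 1547 processed pseudogenes tested 148 (9.57%) were called higher and 299 (19.3%) lower, with a median log2 fold change of -0.34. Over all genes the shares were 19.7% and 15.7%. Long noncoding genes had a median of 0.43. Rn18s-rs5, annotated as an 18S ribosomal RNA-related gene, took the most counts of all genes in unstimulated cells, at 14421, 17980.0 and 21123 CPM, and stood at 23081, 24812 and 30357 CPM in stimulated cells.

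Genes at over 1000 CPM numbered 63 in unstimulated and 153 in stimulated cells. Of the latter, 108 were called higher, and of the former 16 were called lower. Of 9 linker histone genes 4 were called higher and 1 lower. H1f0, a linker histone of non-dividing cells, was at 174, 184 and 172 CPM unstimulated and 69.2, 70.7 and 67.4 CPM stimulated (log2 fold change -1.35). These genes were chosen after their values were seen.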
